A study of Mus musculus with 2 samples.

Results

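The genes described here are 7 matrix metalloproteinases (Mmp2, Mmp3, Mmp10, Mmp11, Mmp12, Mmp13 and Mmp14) and 3 tissue inhibitors of metalloproteinases (Timp1, Timp2 and Timp3), 10 of the 19465 genes counted in spatial transcriptomes of mouse pancreatic tumors. They were taken by symbol as matrix proteases and inhibitors that tumor stroma is known to make, and the neutrophil enzymes Mmp8 and Mmp9 were left out. KPC cells, a mouse pancreatic cancer line, were grown as orthotopic tumors after transduction with a short hairpin against Zeb1 (KPC-shZEB1) or with the control vector (KPC-shV). Each tumor type was measured as 1 Visium CytAssist library, in which probe-captured RNA is counted as unique molecules (UMIs) in barcoded spots, each able to hold several cells. The labels name neither the host strain, the age of the mice nor a drug for these sections, and the study's methods list immunocompetent and immunodeficient hosts. The study describes the sections as the same tumor tissues as its single-cell profiling. By its text, those tumors came from immunocompetent mice given gemcitabine. The methods speak of 2 tumors per group, but 1 library was deposited for each, so there are no replicates and no test, and every interval below is a 95% interval that covers counting error only.

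Metalloproteinases are zinc enzymes secreted as inactive precursors, or anchored in the membrane, that cut collagens, laminins, elastin and other matrix proteins. TIMPs bind the active site of these enzymes and block it, and TIMP2 also takes part in the activation of pro-MMP2 by the membrane enzyme MMP14. In pancreatic tumors these genes are known from fibroblasts, macrophages and tumor cells, and AP-1, a dimer of Fos and Jun proteins, is a known activator of several of the secreted enzymes.

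Mmp13, Mmp12, Mmp3 and Mmp10 lie in this order on chromosome 9 of GRCm38, at 7272514-7283331, 7344381-7369499, 7445822-7455975 and 7502352-7510240, all on the plus strand. Mmp2 lies on chromosome 8 (92827291-92853420), Mmp11 (75923222-75936496) and Timp3 (86300372-86349506) on chromosome 10, Timp2 on chromosome 11 (118301069-118355740), Mmp14 on chromosome 14 (54431612-54445364) and Timp1 on chromosome X (20870166-20874735). The 4 genes on chromosome 9 were the ones with an AP-1 motif, TGANTCA, among the 9 members with a RefSeq promoter window of 300 bases. The same motif, whose reverse complement has the same letters, was in 7.81% of all 32851 windows. The stretches below run from 80 bases before to 50 bases after the RefSeq start site, on the plus strand of GRCm38.p6, with the motif in capitals. They are shown because the 4 genes share it and 3 of them had UMIs concentrated in few spots of KPC-shZEB1.
Mmp13, chr9:7272434-7272563: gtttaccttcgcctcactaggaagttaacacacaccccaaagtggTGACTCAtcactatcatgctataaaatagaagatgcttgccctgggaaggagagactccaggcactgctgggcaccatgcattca
Mmp12, chr9:7347294-7347423: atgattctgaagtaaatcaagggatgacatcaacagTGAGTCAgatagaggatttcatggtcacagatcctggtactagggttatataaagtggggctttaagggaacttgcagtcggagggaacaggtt
Mmp3, chr9:7445742-7445871: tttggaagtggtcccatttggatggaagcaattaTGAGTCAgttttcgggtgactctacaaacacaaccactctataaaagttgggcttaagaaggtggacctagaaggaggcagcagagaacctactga
Mmp10, chr9:7502262-7502391: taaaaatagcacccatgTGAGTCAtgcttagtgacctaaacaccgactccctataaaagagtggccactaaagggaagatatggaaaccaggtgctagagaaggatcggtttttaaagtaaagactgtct
The motif began 35 bases before the start site in Mmp13, 44 in Mmp12, 46 in Mmp3 and 63 in Mmp10. For Mmp12 it was in the window of the downstream of 2 RefSeq start sites. A ZEB1-type E-box, CACCTG on either strand, was in the windows of Mmp10, Timp2 and Timp3 and in 20.2% of all windows, and a hypoxia response element core, ACGTG or GCGTG on either strand, was in those of Mmp14, Timp1, Timp2 and Timp3 and in 43.8% of all windows. These matches describe letters in a reference sequence and do not show that a factor binds there.

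The KPC-shZEB1 library held 2220 spots and 140493626 UMIs, and the KPC-shV library 3552 spots and 172059528 UMIs. Normal pancreas took very different shares of the 2 sections: spots in which acinar genes made up more than 20% of UMIs numbered 754 (34.0%) in KPC-shZEB1 and 247 (6.95%) in KPC-shV. Levels are therefore given as UMIs per 1000000 UMIs (CPM) over the other 1466 and 3305 spots, whose median depth was 58246.5 and 54769 UMIs. On this scale the median gene had a log2 ratio of -0.02 between the libraries, against -0.48 over all spots. The spread of depth differed: over all spots, 70 of KPC-shZEB1 and 729 of KPC-shV held fewer than 20000 UMIs. Such shallow spots weigh less in summed levels. Outside acinar-rich spots Zeb1 itself had 15.6 CPM under the KPC-shZEB1 label against 12.7 CPM in KPC-shV, and over all spots 10.8 against 12.4 CPM. Outside the acinar-rich spots this sum went against the label, and directions below are those of the labelled libraries. Spots can also hold host cells, which did not receive the hairpin, so the sum does not measure Zeb1 in tumor cells alone. The study assessed the knockdown in the KPC cells themselves and stained tumors for Zeb1. Fewer cells of a type and less RNA per cell cannot be told apart in such sums. The libraries share 1718 spot barcodes, which mark positions in the slide design, and 7 genes not expected in these tissues read between 0.04 and 1.38 CPM each.

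Of the 10 members, Mmp3 was the 1 at least 2-fold higher in the library labelled KPC-shZEB1, and 0 were at least 2-fold lower. Among all 16441 genes tested, 4.27% were at least 2-fold higher and 1.93% at least 2-fold lower. Over all spots, acinar-rich ones included, 0 members were 2-fold higher and 4 were 2-fold lower (Mmp10, Mmp11, Mmp12 and Mmp14), beside 2.27% and 8.77% of 17014 genes. The median of the 10 log2 ratios was -0.30 outside acinar-rich spots, with 4 members above 0 and 6 below.

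**Figure D1:**
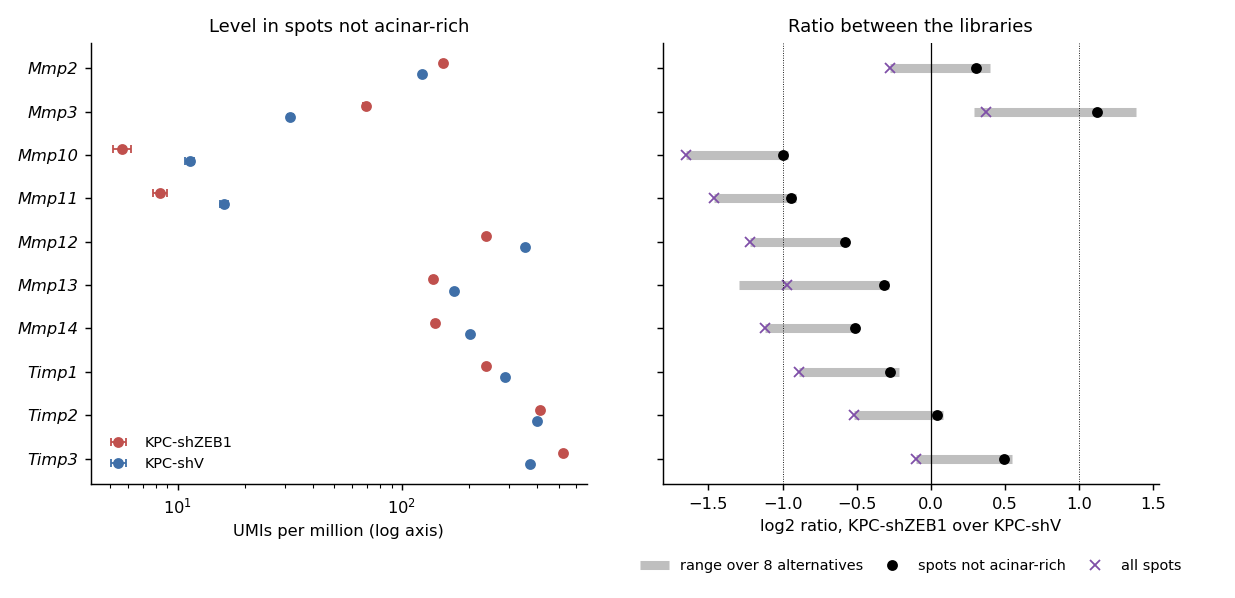
The left panel plots the level of each member in the 2 libraries in CPM on a log axis, with 95% counting intervals, and the right panel plots the log2 ratio outside acinar-rich spots, over all spots, and its range over 8 other settings. Mmp10, Mmp11, Mmp12, Mmp13, Mmp14 and Timp1 stay below 0 in these settings, Mmp3 stays above 0, and Mmp2, Timp2 and Timp3 cross 0. None of the settings took the shallower spots alone. Levels of different genes are not comparable on this axis because probe numbers per gene are not given.

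The collagenase Mmp13, which cleaves fibrillar collagen, read 137 CPM in KPC-shZEB1 and 171 CPM in KPC-shV, a log2 ratio of -0.32 (95% interval -0.35 to -0.29), and -0.97 over all spots. The gelatinase Mmp2, which digests denatured collagen and basement membrane collagen, read 152 and 123 CPM, a ratio of 0.30 (0.27 to 0.34). That of Mmp2 was 0.057 with spots weighted equally and turned to -0.28 over all spots, where it was 0.20 above the median gene.

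Among the stromelysins, Mmp3 and Mmp10, which cleave many matrix proteins and activate other metalloproteinases, went opposite ways. Mmp3 read 69.0 CPM in KPC-shZEB1 and 31.8 CPM in KPC-shV, a log2 ratio of 1.12 (1.07 to 1.17). Mmp10 read 5.66 and 11.3 CPM, a ratio of -0.998 (-1.15 to -0.85), just short of 2-fold. Mmp11, stromelysin-3, which is activated inside the cell by furin, read 8.36 and 16.1 CPM with a ratio of -0.94 (-1.07 to -0.83). Mmp10 and Mmp11 were the least abundant counts among the members in UMIs (485 and 716 in KPC-shZEB1), and both kept their direction in all 8 other settings, with ratios of -1.65 and -1.46 over all spots. The size of the Mmp3 ratio did not hold: it was 0.29 with spots weighted equally, 0.37 over all spots and 0.79 without the 5% of spots highest in Mmp3. Its direction also differed with depth. In spots of at least 56117 UMIs, the pooled median, Mmp3 read 79.4 CPM in KPC-shZEB1 and 15.9 CPM in KPC-shV. In shallower spots it read 46.9 and 69.4 CPM, the other way.

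Macrophage metalloelastase, Mmp12, which cleaves elastin, read 238 CPM in KPC-shZEB1 and 355 CPM in KPC-shV (log2 ratio -0.58, -0.60 to -0.55). The membrane-type enzyme Mmp14, which cleaves collagen at the cell surface, read 141 and 201 CPM, a ratio of -0.51 (-0.54 to -0.48). Both were lower in the library labelled KPC-shZEB1 in every setting tried, with the ratio of Mmp12 between -1.22 and -0.56 and that of Mmp14 between -1.12 and -0.50.

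The inhibitors did not move as a group. Timp1, an inducible inhibitor with cytokine-like activity, read 237 CPM in KPC-shZEB1 and 287 CPM in KPC-shV, a log2 ratio of -0.28 (-0.30 to -0.25), and -0.89 over all spots. Timp2 read 413 and 400.4 CPM, a ratio of 0.04 (0.03 to 0.06) that turned to -0.52 over all spots and to -0.08 with spots weighted equally. Timp3, the inhibitor that binds to the matrix itself, read 524 and 373 CPM, a ratio of 0.49 (0.47 to 0.51) that turned to -0.10 over all spots, where it was 0.38 above the median gene. Summed, the 7 metalloproteinases read 752 and 909.6 CPM (-0.27) and the 3 TIMPs 1174 and 1061 CPM (0.15), the latter turning to -0.44 over all spots.

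In the acinar-rich spots most genes were lower in KPC-shZEB1 than in KPC-shV: the median log2 ratio of 5254 genes was -0.91 and the 90th percentile -0.19. Among the members, Mmp3 read 19.7 CPM in KPC-shZEB1 and 210.3 CPM in KPC-shV (-3.42), Mmp2 22.3 and 119 CPM (-2.41), and Timp2 66.4 and 304 CPM (-2.20). Mmp10 was almost missing from these spots, with 1 UMI in KPC-shZEB1 and 0 in KPC-shV, and Mmp13 read 0.893 and 1.56 CPM, near the level of the unexpected genes. The acinar genes themselves summed to 574033 CPM in these spots of KPC-shZEB1 and 388742 CPM in those of KPC-shV. The part of that difference in these ratios was not tested.

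To place the members in the tissue, the spots outside acinar-rich areas were scored with marker lists, and the 20% of spots with the highest score, over both libraries together, were called rich in that list. Fibroblast-rich spots (Col1a1, Col1a2, Col3a1, Dcn, Lum, Dpt and Pdgfra) numbered 350 in KPC-shZEB1 and 604 in KPC-shV, macrophage-rich spots 358 and 596, epithelial-rich spots 369 and 585 and hypoxia-rich spots 61 and 893. The classes overlap: 65.9% of macrophage-rich spots in KPC-shZEB1 and 80.03% in KPC-shV were also fibroblast-rich, and 62.1% of epithelial-rich spots in KPC-shV were also hypoxia-rich. The fibroblast-rich spots were shallower than the rest, with a median of 44172.5 UMIs in KPC-shZEB1 and 21628.5 in KPC-shV.

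**Figure D2:**
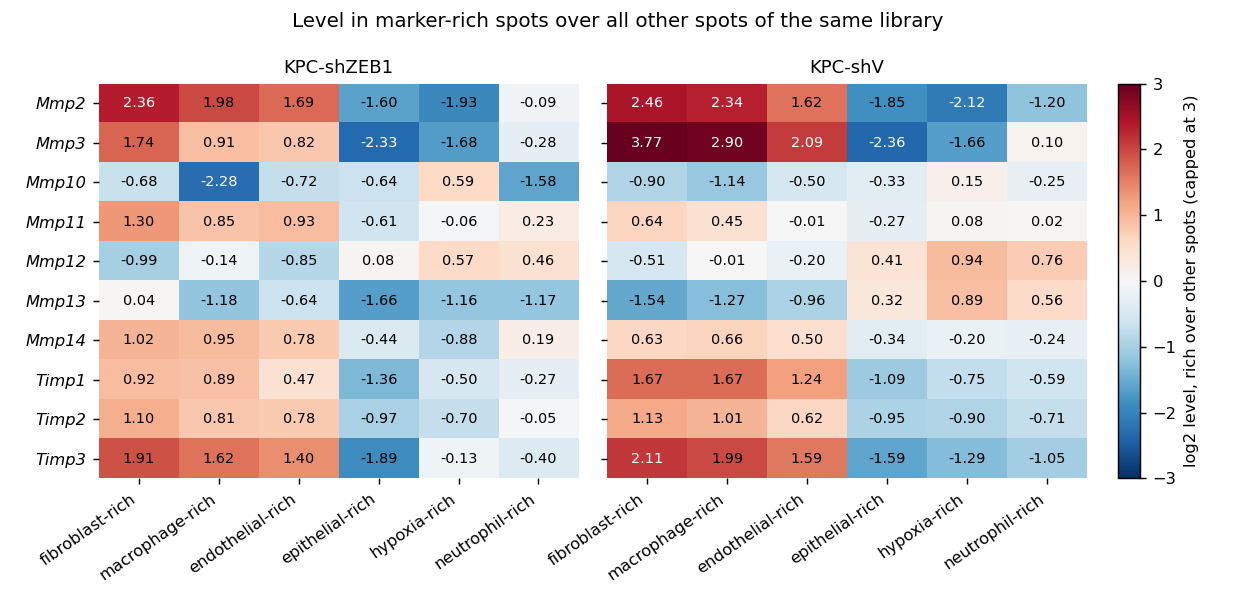
Each cell gives the log2 ratio of a member's level in marker-rich spots over all other spots of the same library, for 6 marker lists in columns, with red above 0 and blue below. Mmp2, Mmp3, Mmp11, Mmp14, Timp1, Timp2 and Timp3 are above 0 in the fibroblast and macrophage columns of both libraries and below 0 in the epithelial column. Mmp10, Mmp12 and Mmp13 do not follow them.

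Mmp2 and Timp3 were higher in fibroblast-rich spots by similar amounts in both libraries. Mmp2 read 441 CPM in fibroblast-rich spots of KPC-shZEB1 against 85.9 CPM in the other spots, a log2 ratio of 2.36 (2.31 to 2.41), and 474 against 86.3 CPM in KPC-shV, a ratio of 2.46 (2.42 to 2.50). Timp3 read 1300 against 346 CPM in KPC-shZEB1 (1.91) and 1225 against 283 CPM in KPC-shV (2.11). Both were low in epithelial-rich spots of both libraries, with ratios of -1.60 and -1.85 for Mmp2 and -1.89 and -1.59 for Timp3. In macrophage-rich spots they were again high, at 1.98 and 2.34 for Mmp2. In spots rich in 1 of these 4 lists only, the macrophage ratio of Mmp2 fell to 1.16 in KPC-shZEB1 and 1.81 in KPC-shV, with 120 and 118 such spots, while its fibroblast ratio was 2.06 and 2.24.

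Mmp3 was also higher in fibroblast-rich spots, but by different amounts in the 2 libraries. It read 160 against 48.1 CPM in KPC-shZEB1 (1.74, 1.66 to 1.81) and 197 against 14.4 CPM in KPC-shV (3.77, 3.69 to 3.85). Between the libraries, Mmp3 was thus somewhat lower in the fibroblast-rich spots of KPC-shZEB1 (-0.30) and higher in its other spots together (1.74). Those other spots differ in their fibroblast score between the libraries. In bins of like score Mmp3 read -0.61 in the lowest bin and 2.35 in the fourth. Its macrophage ratio of 0.91 and 2.90 did not hold in spots rich in macrophage genes alone, where it was -1.22 and 0.36.

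Timp1, Timp2 and Mmp14 were higher in fibroblast-rich spots by smaller ratios, of 0.92 and 1.67 for Timp1, 1.10 and 1.13 for Timp2 and 1.02 and 0.63 for Mmp14, in KPC-shZEB1 and KPC-shV. Mmp11 followed with 1.30 and 0.64. Timp1 read 385 CPM in fibroblast-rich spots of KPC-shZEB1 and 756 CPM in those of KPC-shV, a ratio of -0.97 (-1.02 to -0.93), and had a ratio of -0.23 over the other spots together. Those other spots differ in their fibroblast score between the libraries, and in bins of like score Timp1 also read -0.87 in the lowest bin.

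Mmp10, Mmp12 and Mmp13 were not higher in the fibroblast-rich class as a whole in either library, which goes against the description of the 10 genes as stromal, but spots rich in 1 list only differed from this in part. Mmp12 was lower in fibroblast-rich spots, at -0.99 in KPC-shZEB1 and -0.51 in KPC-shV, and differed little between macrophage-rich and other spots, at -0.14 and -0.01, although it is named for macrophages. It was higher in hypoxia-rich spots, at 348 against 234 CPM in KPC-shZEB1 (0.57, from 61 spots) and 574 against 299 CPM in KPC-shV (0.94). In spots rich in macrophage genes alone its ratio was 0.63 and 0.53. Mmp10 was lower in fibroblast-rich (-0.68 and -0.90) spots, but in spots rich in fibroblast genes alone it turned to 0.69 (0.24 to 1.11, from 114 spots) in KPC-shZEB1 and was -0.45 (-1.03 to 0.08, from 126 spots) in KPC-shV. It was also lower in macrophage-rich spots (-2.28 and -1.14), where it read 1.40 CPM in KPC-shZEB1, near the unexpected genes.

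The summed level of Mmp13 was spread differently over the classes in the 2 libraries. In KPC-shZEB1 73 spots held 62.2% of its UMIs, and 23 of these spots were fibroblast-rich. Over single spots Mmp13 had Spearman correlations of -0.08 and -0.34 with the fibroblast score and 0.13 and 0.33 with the hypoxia score. Those of KPC-shZEB1, given first, were weak. In KPC-shV it read 271 CPM in hypoxia-rich spots against 146 CPM in the others (0.89), 204 against 164 CPM for epithelial-rich spots (0.32, turning to -0.47 in spots rich in epithelial genes alone), and 62.8 against 183 CPM for fibroblast-rich spots (-1.54). In KPC-shZEB1 it read 62.6 against 140 CPM for hypoxia-rich spots (-1.16), 54.5 against 172 CPM for epithelial-rich spots (-1.66), and 140.5 against 137 CPM for fibroblast-rich spots (0.04, -0.03 to 0.11). In spots of KPC-shZEB1 rich in fibroblast genes alone it read 295 CPM against the same 137 CPM, a ratio of 1.11 (1.03 to 1.19), while in KPC-shV that ratio was -1.75. Between the libraries, the summed level of Mmp13 was thus higher in fibroblast-rich spots of KPC-shZEB1, by 1.16 (1.05 to 1.27). It was lower in epithelial-rich spots, at -1.90, and in hypoxia-rich spots, at -2.11. These class values were not computed without the 73 spots, so the 1.16 and 1.11 may not hold across fibroblast-rich spots. None of the 73 was hypoxia-rich, and the spots outside the 73 read 55.2 CPM, below the 62.6 CPM of hypoxia-rich spots. The -1.16 for hypoxia-rich spots of KPC-shZEB1 thus did not hold outside the 73. The hypoxia list as a whole was lower in KPC-shZEB1 (-1.12), and the neutrophil list too (-1.24), and 68.0% of hypoxia-rich spots in KPC-shV were also neutrophil-rich.

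**Figure D3:**
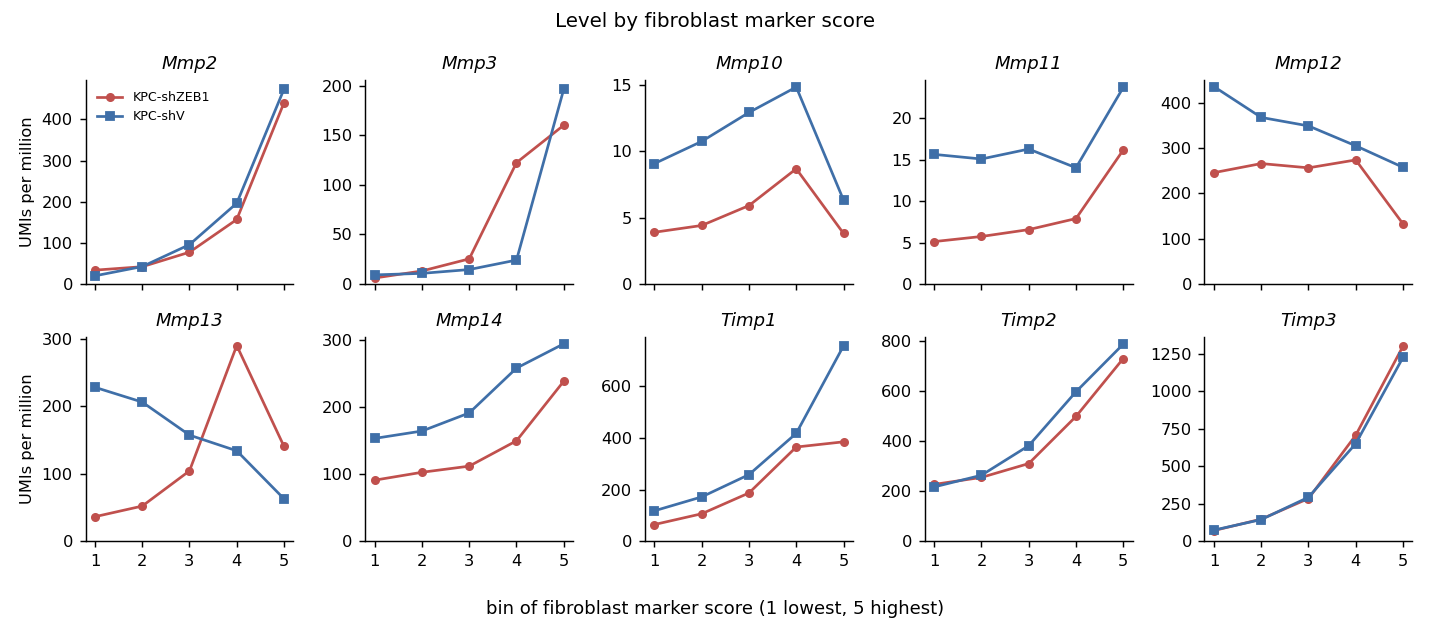
Each panel plots the level of a member in CPM against 5 bins of the fibroblast marker score, set over both libraries together so that a bin holds spots of like score. The 2 lines of Timp3 nearly coincide, those of Mmp10, Mmp11, Mmp12, Mmp14 and Timp1 lie lower for KPC-shZEB1 in every bin, and those of Mmp13 cross.

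Spots of like fibroblast score were then compared between the libraries, in 5 bins with at least 126 spots of KPC-shZEB1 each. Timp3, at 0.49 over these spots as a whole, had bin ratios between -0.06 and 0.12 with a mean of 0.03. The fibroblast list itself read 0.34 over these spots and -0.22 over all spots. Mmp2 had a mean of 0.00 over the bins and was above 0 in 1 of 5, the lowest bin, at 0.77. Mmp10, Mmp11, Mmp12, Mmp14 and Timp1 were below 0 in 5 of 5 bins, with means of -1.03, -1.14, -0.57, -0.66 and -0.64. Mmp11, Mmp12 and Mmp14 were also below 0 in 5 of 5 bins of macrophage, epithelial and hypoxia score, with as few as 43 spots in a bin. In bins of those scores, in that order, Timp3 had means of 0.25, 0.24 and 0.45. Those of Mmp2 were -0.32, 0.08 and -0.08. The small mean of Timp3 was thus seen for the fibroblast score and not for those scores.

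Mmp3 and Mmp13 went both ways over the bins of fibroblast score. Mmp3 ranged from -0.61 to 2.35, and its largest ratio was in the fourth bin, at 122 CPM in KPC-shZEB1 against 24.1 CPM in KPC-shV. Mmp13 ranged from -2.65 in the lowest bin, at 36.3 against 228 CPM, to 1.16 in the highest.

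The UMIs of Mmp3 and Mmp10 lay in few spots in both libraries, and those of Mmp13 in KPC-shZEB1. Mmp10 had 485 UMIs over the 1466 spots of KPC-shZEB1, and the part of such low counts in its share was not tested. The 5% of spots with the highest Mmp13 held 62.2% of its UMIs in KPC-shZEB1 and 25.1% in KPC-shV. For Mmp3 these shares were 59.5% and 47.4%, and for Mmp10 57.3% and 40.1%. The median spot of KPC-shZEB1 read 32.4 CPM of Mmp13 and that of KPC-shV 94.0 CPM, while the highest read 4180 and 1976 CPM. For the other 7 members the share was at most 24.0% in either library. Without these highest spots the ratio of Mmp13 between the libraries was -1.29.

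Mmp13 was also seen in a smaller share of spots in KPC-shZEB1. After each spot was thinned to 5000 UMIs, leaving out 4 shallower spots of KPC-shZEB1 and 175 of KPC-shV, Mmp13 was detected in 23.9% of spots in KPC-shZEB1 (exact 95% interval 21.8% to 26.2%) and 42.2% in KPC-shV (40.4% to 43.9%). Unthinned, these shares were 71.5% and 83.5%. Mmp3 was detected in 15.5% and 12.0% of thinned spots, so its share differed by less than its level, and Mmp10 in 2.19% and 4.63%. Mmp14 was detected in 43.8% and 61.7% and Timp3 in 70.3% and 62.2%. The kidney gene Umod, which these tissues should lack, was detected in 0.616% of thinned spots of KPC-shZEB1.

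**Figure D4:**
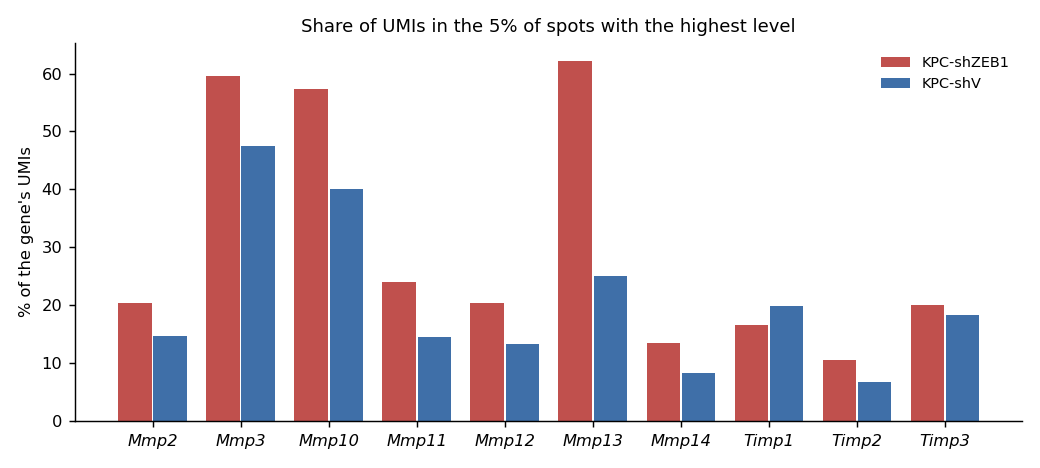
Bars give, for each member and library, the percentage of its UMIs found in the 5% of spots with the highest level of that gene. Mmp3, Mmp10 and Mmp13 stand above the other members in both libraries, and Mmp13 has the widest gap between libraries, 62.2% against 25.1%.

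The spots highest in Mmp13 had different marker levels in the 2 libraries, a description made after the values were seen. In KPC-shZEB1 the 73 such spots read 546 CPM of Mmp3 against 38.8 CPM elsewhere and 34.5 CPM of Mmp10 against 3.84 CPM. Of these, 36 (49.3%) were also among the 73 highest in Mmp3 and 28 (38.4%) among those highest in Mmp10. The fibroblast list was higher there (log2 1.04), as were the myofibroblastic list (1.51) and the islet list (1.42), while the epithelial list (-1.07) and the inflammatory fibroblast list (-0.82) were lower. None of the 73 was hypoxia-rich, and 23 were fibroblast-rich. Zeb1 read 23.7 CPM in these spots and 15.1 CPM elsewhere.

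In KPC-shV the 165 spots highest in Mmp13 read 13.0 CPM of Mmp3 against 32.8 CPM elsewhere, and 0 of them were among those highest in Mmp3. Mmp10 was higher in these spots too, at 24.2 against 10.6 CPM. Mmp12 read 579 against 343 CPM, while in the 73 spots of KPC-shZEB1 it read 202 against 241 CPM. Of the 165 spots, 96 (58.2%) were hypoxia-rich, 55 (33.3%) epithelial-rich and 0 fibroblast-rich. The hypoxia list was higher there, at 2089 against 1044 CPM, and the fibroblast list (-2.06) and the islet list (-3.98) were lower. Zeb1 was lower there too, at 8.07 against 13.0 CPM, the other way from KPC-shZEB1.

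**Figure D5:**
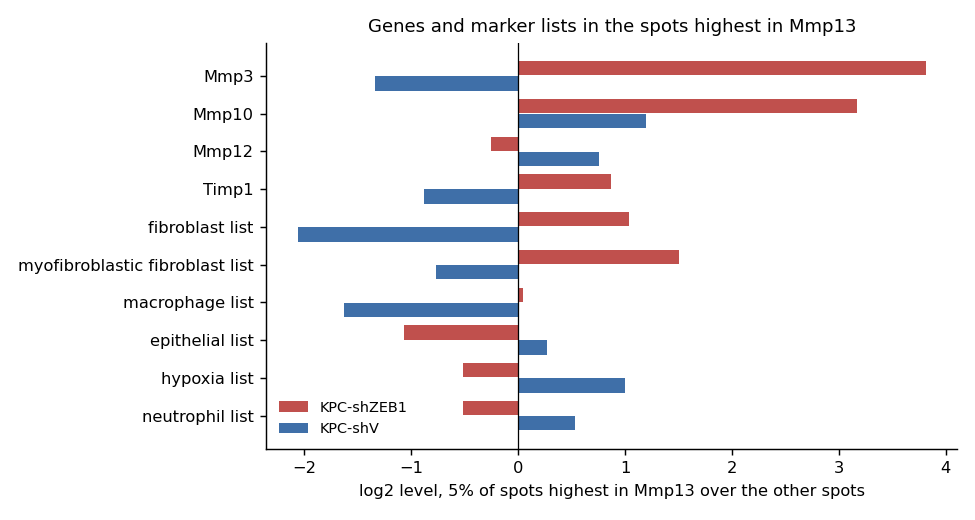
Bars give the log2 level of 4 members and 6 marker lists in the 5% of spots highest in Mmp13 over the other spots of the same library, 73 spots in KPC-shZEB1 and 165 in KPC-shV. Mmp10 is above 0 in both libraries, while all other plotted genes and lists point opposite ways, the macrophage list with only 0.05 in KPC-shZEB1.

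Across single spots the members sorted by their partners. Spearman correlations were taken over the 1466 and 3305 spots, which share a library and differ in depth, and are given for KPC-shZEB1 and then KPC-shV as descriptions. With the fibroblast score they were 0.76 and 0.81 for Mmp2, 0.75 and 0.75 for Timp3, 0.71 and 0.72 for Timp2, 0.59 and 0.60 for Timp1, 0.49 and 0.38 for Mmp3 and 0.46 and 0.37 for Mmp14. That of Mmp12 was -0.29 and -0.35, and that of Mmp13 -0.08 and -0.34. With the hypoxia score Mmp13 had 0.13 and 0.33, and with the epithelial score 0.03 and 0.31. Mmp13 was correlated with Mmp10 at 0.36 and 0.33 and with Mmp12 at 0.32 and 0.40, whereas Mmp3 and Mmp10 had 0.13 and 0.00.

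Among 7907 genes, those most like Mmp2 by the lower of the 2 correlations were Col1a2 (0.81), Col1a1 (0.79) and Gpx3 (0.79), and those most like Timp3 were Col5a2 (0.78), Col1a2 and Col1a1. Timp1 was nearest to Sparc (0.66), Timp2 to Col3a1 (0.70) and Mmp14 to Col15a1 (0.44), so that matrix genes led for all 5. Mmp3 was nearest to Igfbp4 (0.45), with Itm2a also among its 3 nearest. Mmp12 was nearest to Lgals3 (0.53), the galectin-3 gene, followed by Il1rn and Lama3. Mmp13 was nearest to the integrin gene Itgb1 (0.40), Plec and Pmepa1, and Mmp10 to Itgb1 (0.33), Mmp13 and Flna. Mmp10 had fewer UMIs than Mmp11 in both libraries and was detected in 16.6% and 27.7% of spots. With UMIs per spot the correlation was 0.21 and 0.26 for Mmp10 and 0.20 and 0.18 for Mmp13. The part of depth in these likenesses was not tested. The highest value for Mmp11 was 0.18, with Fscn1, too weak in such sparse counts to name a partner.

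Of 41 other genes of matrix proteolysis that were tested, 4 were at least 2-fold higher and 3 at least 2-fold lower in KPC-shZEB1. The shares over all 16441 genes tested were 4.27% and 1.93%. Among the 3 lower were Plau, the urokinase gene (72.2 against 164 CPM, -1.19), and Adam12 (46.0 against 102 CPM, -1.15). The 4 higher, named after their values were seen, were Adamts5, an aggrecanase (1.41), Dpp4 (1.37), A2m (1.12) and Fap, the fibroblast activation protein gene (1.08). Over all spots 0 of 43 list genes tested were 2-fold higher and 7 were 2-fold lower, beside 2.27% and 8.77% of 17014 genes. The median of the 41 log2 ratios was 0.23, against -0.30 for the 10 members and -0.02 for all genes.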

How the data were processed

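Deposited files were gene-by-spot matrices of UMI counts, 1 per library, made by the authors with Space Ranger 2.0.1 on the mm10 (GRCm38) mouse genome for spots under tissue, with 19465 genes in each. The values were used as deposited, with no spot or doublet removed beyond the acinar cut of 20%, since a spot is not a cell. Members and gene lists were chosen with earlier results of these data known. UMIs were summed over spots, divided by all UMIs of those spots and given per 1000000. Ratios of sums have exact binomial 95% intervals and levels exact Poisson ones. They cover counting error only, since 1 library per group leaves no replicates, and no p-value was computed. Genes with at least 200 UMIs over both libraries were counted as tested, the median gene was taken over genes with at least 100 UMIs in each, and a 2-fold difference was the size named. A marker score was the mean of log2(1 + UMIs per 10000) over a list, and spots in the top 20% over both libraries were called rich. All 10 members were named, with the 3 genes most like each in genes of at least 20 CPM, and list genes past 2-fold that were so over all spots too. Some genes that this rule names are not reported here. The acinar list had 18 of 22 genes, the epithelial list 5 of 6 (no Krt18) and the protease list 43 of 44 (no Mmp1a). Promoter windows came from RefSeq (GRCm38.p6) and gene positions from GENCODE. The script was tested on simulated data of 19465 genes in 500 spots per library for KPC-shZEB1 against KPC-shV: 199 of 200 changed genes had the right direction and 95.7% of 19276 intervals held the true ratio. Simulated counts were Poisson draws from the same composition in every spot of a library. They hold no clumping over spots, so this checks the calculation for counting error only. Other settings covered the acinar cut (5%, 40% or none), scaling, spot filters, the 5% of spots with the highest level, the size of the rich classes (10%) and 10 bins. Python 3.11.15, numpy 2.4.6, scipy 1.17.1, pandas 2.3.3 and matplotlib 3.10.9 were used.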

Additional observations from a re-analysis of the deposited data

Results flagged for a closer look

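The contrast of Mmp13 in summed levels between marker-rich and other spots pointed opposite ways in the 2 libraries for 3 marker lists. In KPC-shZEB1 73 spots held 62.2% of its UMIs, and 5 of these were epithelial-rich. The remaining spots read 55.2 CPM. All epithelial-rich spots, those 5 included, read 54.5 CPM, and their level without the 5 was not computed. Over single spots its Spearman correlation in KPC-shZEB1 and KPC-shV was 0.13 and 0.33 with the hypoxia score. With the epithelial score it was 0.03 and 0.31, the first too small to give a direction. With the neutrophil score it was -0.04 and 0.12. With UMIs per spot it was 0.20 and 0.18, and the part of depth in these correlations was not tested. For epithelial-rich spots the log2 ratio was -1.66 in KPC-shZEB1 and 0.32 in KPC-shV, a difference of -1.97. In spots rich in epithelial genes alone the ratio was -1.65 and -0.47, so both libraries then pointed the same way, and 62.1% of epithelial-rich spots in KPC-shV were also hypoxia-rich. For hypoxia-rich spots it was -1.16 and 0.89, a difference of -2.05 that rests on 61 such spots in KPC-shZEB1. None of the 73 spots was hypoxia-rich. The hypoxia-rich spots of KPC-shZEB1 read 62.6 CPM, above the 55.2 CPM of the spots outside the 73. The -1.16 thus did not hold outside the 73 spots. For neutrophil-rich spots the ratio was -1.17 and 0.56, a difference of -1.74 that rests on 69 spots. Mmp14 in neutrophil-rich spots read 0.19 in KPC-shZEB1 and -0.24 in KPC-shV, a difference of 0.43. With 1 library per condition none of these differences was tested.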

How the results depend on the processing

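No paired analysis was possible because each condition has 1 library. Over all spots the summed TIMPs turned to -0.44, the summed metalloproteinases read -0.89, 0 members were 2-fold higher and 4 lower, and 0 genes of the protease list were 2-fold higher and 7 lower. With spots weighted equally these were 0.076, -0.44, 0, 2, 0 and 5. Without the 5% of spots with the highest level, the sums were 0.12 and -0.45, and the counts of members 0 and 3. An acinar cut of 5% gave -0.26 for the metalloproteinases and 1 member lower, and one of 40% gave 0.13 and -0.30 for the sums with 0 members higher and 1 lower. Median-of-ratios scaling gave 0.16 and -0.26. Spots with at least 20000 UMIs, a setting chosen after the data were seen, gave 0.18, -0.26 and 1 member lower. The shares of all genes 2-fold higher and lower were 4.27% and 1.93% outside acinar-rich spots and 2.27% and 8.77% over all spots. They were not taken under the other settings, so the counts there cannot be set against all genes. Mmp10 lay at -0.998, so its place among the 2-fold lower genes changed with small shifts. Of 120 contrasts between marker-rich and other spots, 48 passed 2-fold and 47 of these kept their direction in every setting; that of Mmp13 in neutrophil-rich spots of KPC-shZEB1 turned to 0.086 with classes of the top 10%. None of these settings left out the 73 spots highest in Mmp13 in KPC-shZEB1. With spots rich in 1 list only, smaller contrasts also turned. Among them were Mmp10 in fibroblast-rich spots of KPC-shZEB1, to 0.69, and Mmp13 in epithelial-rich spots of KPC-shV, to -0.47. Mmp3 in macrophage-rich spots of KPC-shZEB1 turned to below 0, and Mmp12 in those of both libraries to above 0. Causes were not tested. Mmp10 and Mmp11, with 485 and 716 UMIs in KPC-shZEB1, have the widest intervals.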
